A study of Mus musculus with 27 samples.

Results

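Genes of antigen presentation by the major histocompatibility complex (MHC) were followed in the maternal liver of the mouse before and during pregnancy. The 10 genes were picked by symbol among the 21823 genes of the expression table, and all 10 were found once and passed the filter on low values that 12952 genes passed. They were the class I heavy chains H2-K1 and H2-D1 with their light chain B2m, the peptide supply genes Tap1, Psmb8 and Psmb9, and the class II genes H2-Aa, H2-Ab1, H2-Eb1 and Cd74.

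RNA came from lobular zones cut out of frozen liver sections by laser microdissection, and there were 27 libraries in 9 groups of 3. All mice were wild type (WT) females, of the C57BL/6 strain in the labels and C57BL/6N in the methods, and no group carried a transgene or received an agent. The stages were non-pregnant (NP), 8 days post-coitum (dpc8) and 16 days post-coitum (dpc16), each with zone 1, zone 2 and zone 3. The labels give neither an age nor the animal behind a library, while the methods give an age range in weeks for the mice of the study as a whole. Values are fragments per kilobase of transcript, scaled to mapped fragments (FPKM), as deposited, and they can be compared between genes because they are divided by transcript length.

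MHC class I molecules are found on nearly all cells and show peptides made inside the cell to CD8 T cells. The peptides are cut by the proteasome, whose immune form carries Psmb8 and Psmb9 in place of constitutive subunits, and the TAP transporter, of which Tap1 is one chain, carries them into the endoplasmic reticulum. Class II molecules show peptides from outside the cell to CD4 T cells, are assembled around the invariant chain Cd74, and are known mainly from professional antigen-presenting cells, which in the liver include the resident macrophages called Kupffer cells. Interferon gamma induces both arms, in part through IRF1, and the coactivators NLRC5 and CIITA drive class I and class II genes from a shared promoter module with X and Y boxes.

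In these bulk samples, fewer cells of a type and less RNA per cell cannot be told apart. The libraries held about 7.56 to 33.7 M reads, as read from the steps between low FPKM values, and 1 read on a 1 kb transcript was worth 0.0297 FPKM in the deepest and 0.132 FPKM in the shallowest library. The zone labels held against zone markers: 4 of 4 periportal genes were higher and 4 of 4 pericentral genes lower in zone 1 than in zone 3. The hepatocyte gene Alb gave 3.71% to 21.0% of a library's summed FPKM. In 6 libraries the summed FPKM of 4 Y-linked genes was 7.92 to 23.2, although all mice are labelled female, and in the other 21 it was 2.97 or less. Those 6 were replicate 1 of NP zone 1, replicate 2 of NP zone 3, replicate 1 of dpc8 zone 1, replicate 2 of dpc8 zone 2 and replicate 3 of dpc16 zones 2 and 3, and their mean log2 level of 8 connective tissue and smooth muscle genes was 5.59 to 7.01, against 1.82 to 4.78 elsewhere. The results that follow are given with and without them where a call rests on them.

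Of the 10 genes, 8 lie in the MHC on chromosome 17 of the mm10 genome. In the GENCODE vM21 annotation H2-K1 spans 33996017 to 34000347 on the minus strand and H2-D1 spans 35262730 to 35267499 on the plus strand. Psmb9 (34181987 to 34187764, minus strand) and Tap1 (34187553 to 34197225, plus strand) start head to head and their gene models share 212 bases. Psmb8 (34197721 to 34201454, plus strand) begins 495 bases after the end of Tap1. The class II genes follow, with H2-Ab1 at 34257689 to 34269419 on the plus strand, H2-Aa at 34282744 to 34287823 on the minus strand and H2-Eb1 at 34305867 to 34316674 on the plus strand. B2m lies outside the MHC on chromosome 2 (122147686 to 122153083, plus strand), as does Cd74, whose position is given with its values. H2-K1 and H2-D1 are close paralogs, and only uniquely mapped reads were used. Reads that match both would be left out, so their single values are uncertain. Reads on the stretch shared by Tap1 and Psmb9 could not be assigned if counting ignored strand, which is not given in the sources used here.

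The promoters of 4 members are shown because class I and class II genes share the X and Y box module, and B2m and the class I genes also carry an element for interferon regulatory factors (IRF). Each is the 250 bases before the start of the gene in RefSeq, build GRCm38.p6, 5′ to 3′ on the strand of the gene, with matches in capitals. The motifs searched on both strands were AANNGAAA (IRF core), TTCNNNGAA (the gamma-activated site, GAS), AGNAACNG (X1 box), TGACG (X2 box) and ATTGG (Y box). B2m lies at chr2:122147437-122147686, H2-K1 at chr17:34000348-34000597, H2-Aa at chr17:34287824-34288073 and H2-Eb1 at chr17:34305617-34305866.
B2m: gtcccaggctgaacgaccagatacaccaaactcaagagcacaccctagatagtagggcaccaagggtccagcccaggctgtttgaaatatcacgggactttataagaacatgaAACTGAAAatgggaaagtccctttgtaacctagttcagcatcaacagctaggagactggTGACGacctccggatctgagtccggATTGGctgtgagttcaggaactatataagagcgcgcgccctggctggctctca
H2-K1: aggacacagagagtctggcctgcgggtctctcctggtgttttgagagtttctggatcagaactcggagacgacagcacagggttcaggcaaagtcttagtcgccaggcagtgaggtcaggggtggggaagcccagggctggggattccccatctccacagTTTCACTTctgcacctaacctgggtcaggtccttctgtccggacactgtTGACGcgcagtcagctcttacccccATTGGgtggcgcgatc
H2-Aa: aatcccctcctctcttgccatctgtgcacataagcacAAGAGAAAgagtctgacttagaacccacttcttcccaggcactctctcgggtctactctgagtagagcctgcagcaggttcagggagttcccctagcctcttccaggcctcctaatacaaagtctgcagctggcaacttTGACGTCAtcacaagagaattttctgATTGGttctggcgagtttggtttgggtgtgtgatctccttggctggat
H2-Eb1: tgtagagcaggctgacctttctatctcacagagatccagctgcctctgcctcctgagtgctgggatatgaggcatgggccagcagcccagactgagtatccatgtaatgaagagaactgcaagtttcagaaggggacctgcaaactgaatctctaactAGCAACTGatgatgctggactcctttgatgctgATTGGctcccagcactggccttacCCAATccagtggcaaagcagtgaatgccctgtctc

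In H2-Aa the letters TGACG stood 74 bases before the start and ATTGG 48 bases before it, and the X2 match overlapped its own reverse complement. In B2m the X2 and Y matches began 78 and 53 bases before the start, and in H2-K1 41 and 16 bases before it. H2-Eb1 held an X1 match 92 bases before the start, Y matches 59 bases and, on the other strand, 35 bases before it, and no TGACG. RefSeq held windows for 8 of the 10 members, all but H2-Ab1 and Cd74. Among those 8, the X2 letters occurred in 6 and the Y letters in 7, whereas 17.8% and 33.8% of all 32851 promoter windows held them. The X1 letters were in 2 of the 8 and in 14.5% of all windows, the IRF core was in 4 of the 8 (B2m, H2-K1, H2-D1 and H2-Aa) and in 21.3% of all, and the GAS letters were in Psmb8 alone of the 8 and in 7.02% of all. The upstream windows of Tap1 and Psmb9 overlapped by 225 bases. Their X2 matches were the same bases read on opposite strands, as were their Y matches, and each was counted for both genes. A match describes letters only, not a bound site.

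The class I genes stood far above the peptide supply and class II genes, whose levels overlapped. B2m and H2-K1 ranked 45th and 49th of the 12952 genes by mean FPKM over all libraries, with means of 1596 and 1457, and H2-D1 ranked 516th with 176. Cd74, the invariant chain of class II, averaged 41.3 FPKM, and the class II chains H2-Aa, H2-Ab1 and H2-Eb1 averaged 17.3, 14.1 and 13.1. The immunoproteasome subunits Psmb8 and Psmb9 averaged 25.1 and 13.4, and the transporter chain Tap1 averaged 11.5. Within a member, the highest library exceeded the lowest by 3.16-fold for B2m up to 10.9-fold for Psmb9. For 8 of the 10 members, all but Psmb9 and H2-Ab1, the lowest of all 27 values was in replicate 3 of dpc16 zone 2, a library with Y-linked FPKM.

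**Figure D1:**
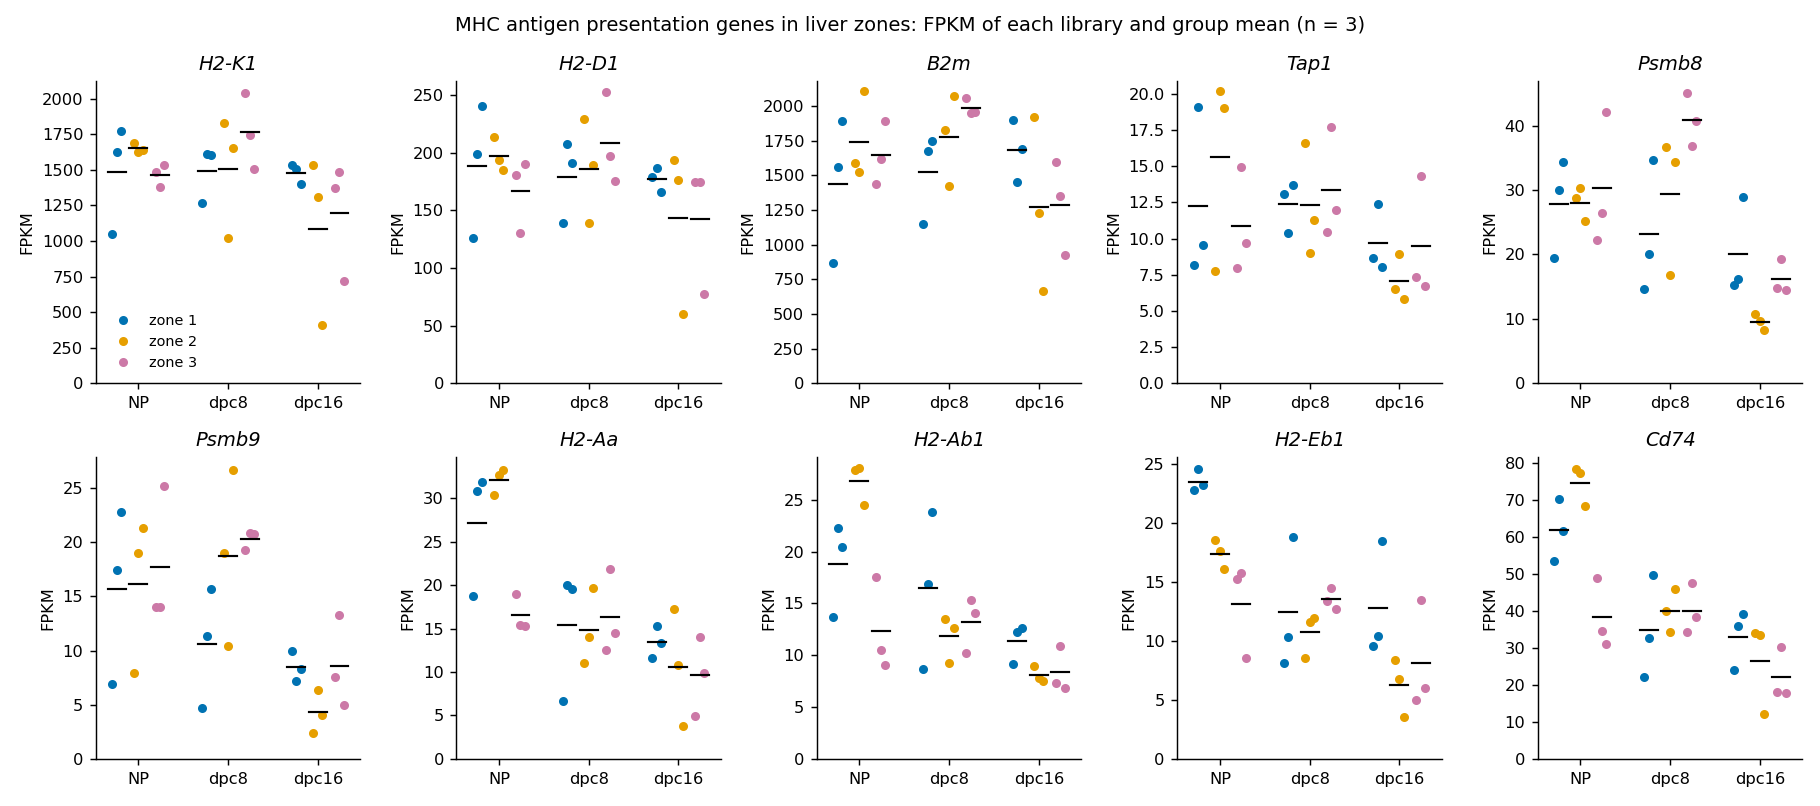
FPKM of each of the 10 genes (vertical axis, from 0) at NP, dpc8 and dpc16 (horizontal axis), with 1 point per library, colours for zones 1 to 3 and a black bar at the mean of the 3 libraries of a group. The class II genes and Psmb8 and Psmb9 sit lowest at dpc16, while most dpc16 values of H2-K1, H2-D1 and B2m lie within the range of NP.

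The first question was whether presentation genes differ between stages of pregnancy, taking the mean over the zones. Between dpc16 and NP, 6 of the 10 members fell: all 4 class II genes and both immunoproteasome subunits, by about 1 on the log2 scale. Over all genes tested, 6.15% were called lower in that comparison. Neither the class I chains, nor B2m, nor Tap1 passed the test. The median log2 fold change over the 10 members was -0.92 and over all genes -0.01. Calls are from limma on log2(FPKM + 1), with p-values adjusted by Benjamini-Hochberg over all 12952 genes and a threshold of 0.05, and fold changes on that scale understate the change of low genes.

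H2-Aa encodes the alpha chain of the class II molecule I-A. Over the 9 libraries of a stage its lowest, median and highest FPKM were 15.3, 30.4 and 33.3 at NP, 6.67, 14.5 and 21.9 at dpc8, and 3.78, 11.6 and 17.2 at dpc16. All 9 dpc16 libraries were under the NP median and 7 were under the lowest NP library. The log2 fold change of dpc16 against NP was -1.16 ± 0.24 (SE), with an adjusted p of 0.0028 by limma.

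H2-Ab1 encodes the beta chain that pairs with H2-Aa. It ran from 9.04 to 28.1 FPKM with a median of 20.4 at NP, from 8.67 to 23.9 with a median of 13.5 at dpc8, and from 6.83 to 12.6 with a median of 8.95 at dpc16. At dpc16 all 9 libraries were under the NP median and 5 were under its lowest value. The log2 fold change was -0.92 ± 0.17 (SE), adjusted p 0.000832 by limma.

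H2-Eb1 encodes the beta chain of the I-E molecule, which C57BL/6 mice do not show on the cell surface because their alpha chain gene is defective. It ran from 8.51 to 24.6 FPKM (median 17.6) at NP and from 3.55 to 18.5 (median 8.41) at dpc16, with dpc8 between at a median of 12.0. Of the 9 dpc16 libraries 8 were under the NP median, so the stages overlapped. The log2 fold change was -0.99 ± 0.20 (SE), adjusted p 0.0015 by limma.

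Cd74, on chromosome 18 (60803848 to 60812652, plus strand), holds class II dimers together and blocks their groove until they reach the endosome. Its lowest, median and highest values were 31.1, 61.6 and 78.4 FPKM at NP, 22.2, 38.5 and 49.8 at dpc8, and 12.1, 30.3 and 39.1 at dpc16. All 9 dpc16 libraries were under the NP median and 5 were under its lowest value. Its log2 fold change was -1.09 ± 0.19 (SE), with the lowest adjusted p of the 10 members, 0.000468 by limma.

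Psmb8 supplies the chymotrypsin-like subunit of the immunoproteasome. It ran from 19.4 to 42.1 FPKM (median 28.7) at NP, from 14.6 to 45.1 (median 34.7) at dpc8 and from 8.32 to 29.0 (median 14.8) at dpc16. At dpc16, 8 of 9 libraries were under every NP library, the exception being replicate 3 of zone 1 at 29.0. The log2 fold change of dpc16 against NP was -0.92 ± 0.19 (SE), adjusted p 0.00194 by limma.

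Psmb9, which takes the place of the constitutive subunit Psmb6 in the same particle, had medians of 17.5, 19.0 and 7.16 FPKM at NP, dpc8 and dpc16, within ranges of 6.91 to 25.2, 4.71 to 26.7 and 2.44 to 13.3. All 9 dpc16 libraries were under the NP median, but only 4 were under the lowest NP library. The log2 fold change was -1.12 ± 0.27 (SE), adjusted p 0.00743 by limma.

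Tap1 had medians of 9.67 FPKM at NP, 11.9 at dpc8 and 8.03 at dpc16. Its dpc16 change of -0.47 ± 0.21 (SE) had an adjusted p of 0.166 by limma. The 95% interval of that change, from -0.90 to -0.04, overlapped those of Psmb8 (-1.31 to -0.53) and Psmb9 (-1.67 to -0.56), and the difference between these genes was not tested.

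The class I members kept high levels at every stage. H2-K1 had a median of 1626 FPKM at NP, 1608 at dpc8 and 1399 at dpc16, and H2-D1 of 190.03, 191 and 175. B2m had a median of 1590 at NP, 1829 at dpc8 and 1452 at dpc16. All 9 dpc16 libraries were under the NP median for H2-K1, 8 of 9 for H2-D1 and 5 of 9 for B2m. Under the lowest NP library there were 2, 2 and 1. The dpc16 changes on the log2 scale were -0.38 ± 0.22 (SE) for H2-K1, -0.33 ± 0.21 for H2-D1 and -0.22 ± 0.19 for B2m, with adjusted p of 0.299, 0.392 and 0.562 by limma. Their 95% intervals ran from -0.83 to 0.06, from -0.77 to 0.12 and from -0.62 to 0.18, so the interval of H2-K1 holds both no change and a fall larger than 0.8 on the log2 scale. Without the 6 libraries with Y-linked FPKM the changes were -0.17, -0.16 and -0.12.

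**Figure D2:**
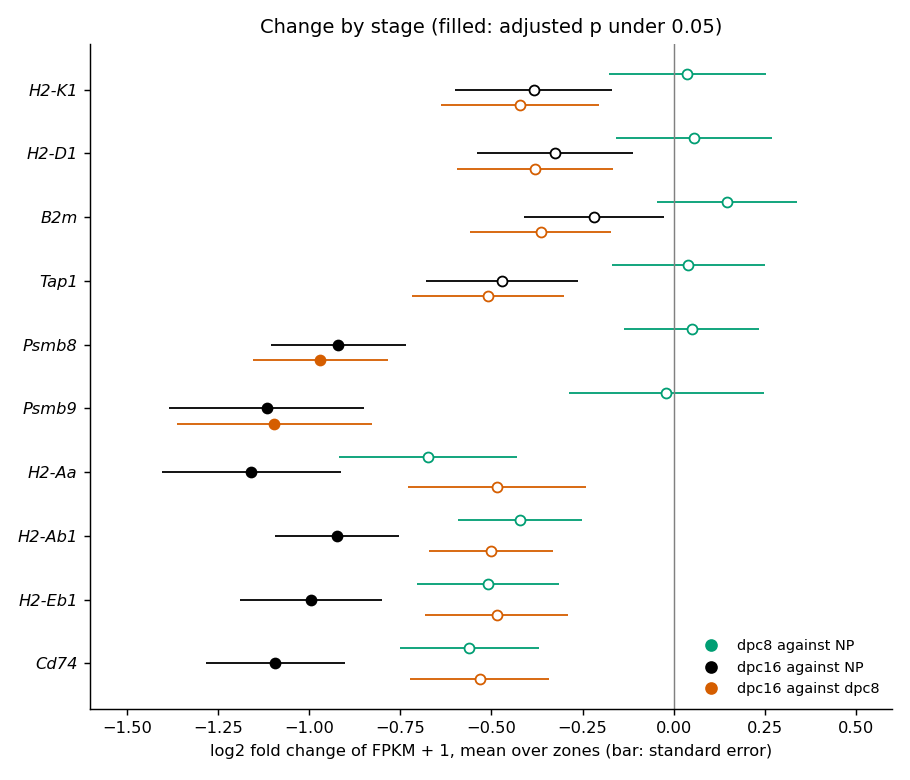
Log2 fold change of FPKM + 1, mean over zones (horizontal axis), for each member (vertical axis) in the comparisons of stages, with bars of 1 standard error and filled points where the adjusted p was under 0.05. For dpc16 against NP the filled points are the 4 class II genes, Psmb8 and Psmb9, between -1.16 and -0.92, and for dpc8 against NP none is filled.

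The libraries of a stage may share animals across zones, in which case p-values over 9 libraries are too small. With stage and replicate number as a random term, the same 6 members were called, with adjusted p between 0.00408 and 0.0275 by limma. All 6 were called in each of the 26 alternatives run for this comparison, 18 of which left out 1 library. Without the 6 libraries with Y-linked FPKM the fold changes of the 6 were between -1.22 and -0.81.

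The scale of the libraries bears on these values, because the summed FPKM of a library was 523854 to 988500 at dpc16 and 499866 to 704327 at NP. Alb alone gave 7.98% to 21.0% of it at dpc16 and 3.71% to 12.0% at NP. When each library was scaled to the same sum, the median of all genes moved to -0.33 for dpc16 against NP, and the share of calls that were lower rose from 52.1% to 91.8%. All 10 members were then called lower, as were 23.02% of all genes. Relative to that median the 6 members changed by -0.99 to -1.24 on the log2 scale, and H2-K1, H2-D1 and B2m by -0.45, -0.39 and -0.29. With quantile normalization, H2-K1 (-0.73) and B2m (-0.51) were called beside the 6. A call of lower class I expression thus depended on the scaling, whereas that of the class II genes, Psmb8 and Psmb9 did not.

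Between dpc8 and NP no member was called, and 0.108% of all genes were. The class II genes had log2 fold changes of -0.67 ± 0.24 for H2-Aa, -0.56 ± 0.19 for Cd74, -0.51 ± 0.20 for H2-Eb1 and -0.42 ± 0.17 for H2-Ab1 (SE), with adjusted p between 0.525 and 0.692 by limma and unadjusted p under 0.05 for all 4, as for 6.11% of all genes in either direction. Beside them, the 8 markers of the sinusoidal endothelium, which lines the liver capillaries, were all negative at dpc8 with a median of -0.39. None of the 8 was called and 4 had unadjusted p under 0.05, and their part in the class II values was not tested. The other 6 members had fold changes between -0.02 and 0.15. For Psmb8 the 95% interval was -0.34 to 0.44 and for Psmb9 -0.58 to 0.53.

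Between dpc16 and dpc8, Psmb8 and Psmb9 fell, and 5.69% of all genes were called lower. Psmb8 changed by -0.97 ± 0.19 (SE, adjusted p 0.00131 by limma) and Psmb9 by -1.10 ± 0.27 (adjusted p 0.00943). The class II genes had changes of -0.48 to -0.53, and none was called, with adjusted p of 0.0617 for H2-Ab1 and 0.0772 for Cd74 by limma. Without the 6 libraries with Y-linked FPKM, H2-K1 (-0.24) and H2-Ab1 (-0.62) were also called. This comparison and that of dpc16 with NP share the dpc16 libraries.

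The next question was whether the change at dpc16 was seen in each zone. In zone 2, 5 members fell against NP, namely the 4 class II genes and Psmb8, where 1.64% of all genes were called lower. In zone 1 and zone 3 none was called, where 1.37% and 1.32% of all genes were, and 4 and 3 members had unadjusted p under 0.05, as had 10.99% and 11.5% of all genes.

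In zone 2, H2-Ab1 measured 27.9, 28.1 and 24.5 FPKM in NP replicates 1 to 3, 13.5, 9.24 and 12.7 at dpc8, and 8.95, 7.78 and 7.55 at dpc16. Its dpc16 values were all under its dpc8 values, which were all under its NP values. The log2 fold change of dpc16 against NP was -1.61 ± 0.29 (SE), adjusted p 0.00301 by limma.

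Cd74 in zone 2 measured 78.4, 77.2 and 68.5 FPKM at NP, 39.9, 34.3 and 45.9 at dpc8, and 34.1, 33.5 and 12.1 at dpc16, again without overlap between the stages. Its fold change was -1.59 ± 0.33 on the log2 scale (SE, adjusted p 0.00803 by limma), and -1.12 without the third dpc16 library.

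H2-Aa measured 30.4, 32.6 and 33.3 FPKM at NP in zone 2 and 17.2, 10.8 and 3.78 at dpc16. The dpc16 replicates differed among themselves by more than 4-fold, all under NP. The change was -1.72 ± 0.42 (SE, adjusted p 0.0276 by limma), and H2-Aa was no longer called in 5 of the 6 fits that left out 1 library.

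H2-Eb1 measured 18.5, 17.6 and 16.1 FPKM at NP and 8.41, 6.79 and 3.55 at dpc16 in zone 2, without overlap. Its change of -1.41 ± 0.34 (SE, adjusted p 0.0228 by limma) was no longer called in 4 of those 6 fits.

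Psmb8 in zone 2 measured 28.7, 30.3 and 25.1 FPKM at NP, 36.7, 16.9 and 34.4 at dpc8, and 10.8, 9.66 and 8.32 at dpc16. Here the dpc16 values were close together and under every NP and dpc8 value. The changes were -1.46 ± 0.32 against NP (SE, adjusted p 0.0127 by limma) and -1.45 ± 0.32 against dpc8 (adjusted p 0.0217). The call against dpc8 was lost in 4 of the 6 fits that left out 1 library and when only the groups compared were fitted.

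Psmb9 in zone 2 measured 7.91, 19.0 and 21.3 FPKM at NP, 19.0, 10.4 and 26.7 at dpc8, and 2.44, 6.38 and 4.09 at dpc16. The dpc16 values lay under all others, the nearest NP library being replicate 1. Against dpc8 the change was -1.87 ± 0.46 (SE, adjusted p 0.042 by limma), and against NP it was -1.65 ± 0.46 with an adjusted p of 0.0592, or called when the replicate number was a fixed block. The call against dpc8 was lost in 5 of the 6 fits that left out 1 library, with no filter on low values, with quantile normalization and when only the groups compared were fitted.

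The calls in zone 2 rested on few libraries. Without dpc16 replicate 3, which has Y-linked FPKM, 3 of the 5 members remained called against NP (Psmb8, H2-Ab1 and Cd74), and the same 3 without NP replicate 3. Without NP replicate 2, only H2-Ab1 and Cd74 remained. Without all 6 libraries with Y-linked FPKM, Psmb8, Psmb9, H2-Ab1 and Cd74 were called. When only the 6 libraries of zone 2 at NP and dpc16 were fitted, no member was called, with an adjusted p of 0.086 for H2-Ab1 by limma.

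Genes outside the 10 members were also called lower in zone 2 at dpc16 against NP, where 1.64% of all genes were. Of 32 other presentation genes tested there were 2, Cd1d1 and Psmb10. Irf1 and the interferon-induced genes Gbp3, Igtp and Gbp2 were called lower too, and Gbp3 was also called lower in zones 1 and 3. The part of these genes in the zone 2 result was not tested. The Kupffer cell markers were also low in dpc16 zone 2. Clec4f, a lectin of these cells, measured 97.5, 75.7 and 121 FPKM at NP and 60.6, 57.7 and 15.5 at dpc16, a change of -1.32 ± 0.35 (SE, adjusted p 0.0473 by limma). Without dpc16 replicate 3, which has Y-linked FPKM, it was -0.70 and not called (adjusted p 0.214), and the call was lost in 4 of the 6 fits that left out 1 library and in 5 of 9 other alternatives. Clec4f was the 1 called of 11 Kupffer cell markers in zone 2, where all 11 were negative with a median of -1.16, or -0.56 without that library. Without dpc16 replicate 1 there were 4 called. With each library scaled to the same sum 9 of the 11 were called lower (median -1.47), beside 7.999% of all genes. The summed FPKM of the 11 in dpc16 zone 2 was 336, 312 and 89.2 in replicates 1 to 3, against 483, 388 and 624 at NP. In zones 1 and 3 none of the 11 was called on the values as deposited, and the medians were -0.30 and -0.91. Their part in the zone 2 result was not tested.

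In zone 1 the log2 changes of the class II genes at dpc16 against NP were -0.67 to -0.94, and in zone 3 they were -0.49 to -0.82. H2-Aa in zone 1 measured 18.7, 30.8 and 31.9 FPKM at NP and 11.6, 15.3 and 13.3 at dpc16, and in zone 3 it measured 19.0, 15.4 and 15.3 at NP and 4.88, 14.1 and 9.92 at dpc16. In both zones its dpc16 values did not overlap NP. All 3 dpc16 values were under all 3 NP values for 4 members in zone 1 (the class II genes), 7 in zone 2 (the class II genes, Psmb8, Psmb9 and H2-K1) and 4 in zone 3 (Psmb8, Psmb9, H2-Aa and Cd74), beside 8.01%, 9.59% and 8.87% of all genes. For dpc8 under NP the counts were 2, 4 and 0 in zones 1, 2 and 3, beside 2.92%, 5.76% and 5.07% of all genes. The 4 in zone 2 were the class II genes.

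Whether the change at dpc16 differed between zones was tested directly, in comparisons added after the calls in zone 2 had been seen. The change in zone 2 minus that in zone 1 was negative for all 10 members, between -0.98 and -0.53 on the log2 scale, and minus that in zone 3 it was also negative for all, between -1.13 and -0.18. None was called, with lowest adjusted p of 0.782 and 1 by limma, and 0% and 0.0154% of all genes were called. At an unadjusted p under 0.05 there were 2 members (H2-Ab1 and Psmb8) and 1 member (H2-Ab1), beside 4.29% and 2.47% of all genes. The change at dpc16 in zone 1 minus zone 3 was between -0.18 and 0.67 with no call, where 0.054% of all genes were called, and the same difference for dpc8 gave no call among the members or among all genes (0%). At an unadjusted p under 0.05 there were 0 members and 1 member (H2-Eb1, -1.03), beside 3.16% and 2.36% of all genes. A larger fall in zone 2 was therefore not shown by the test of the difference.

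**Figure D3:**
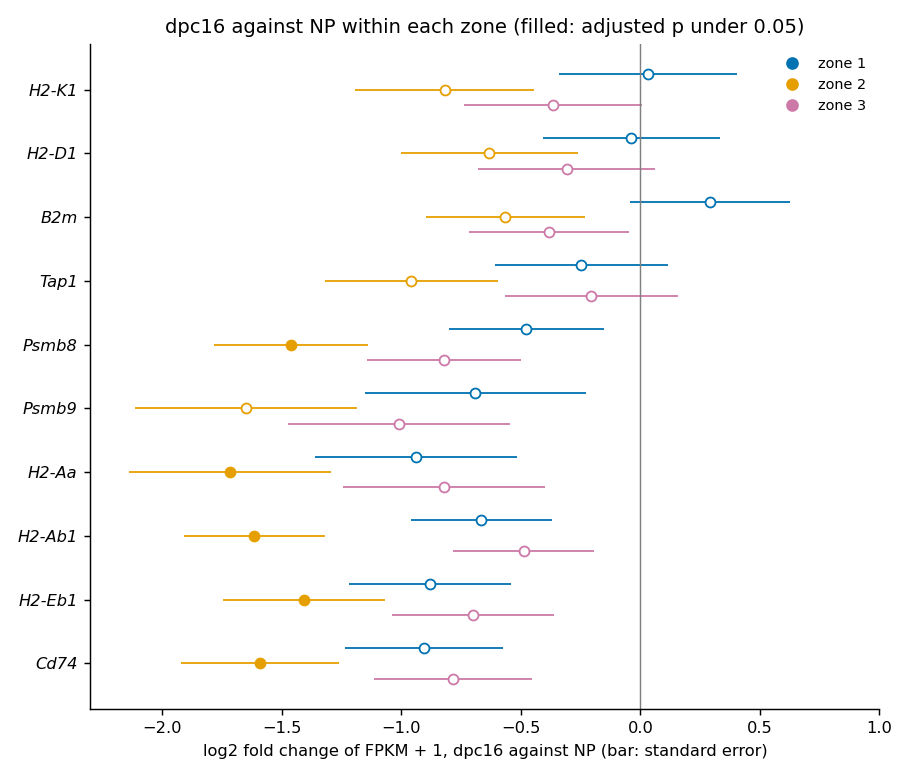
Log2 fold change of FPKM + 1 at dpc16 against NP (horizontal axis) for each member (vertical axis) in zones 1, 2 and 3, with bars of 1 standard error and filled points where the adjusted p was under 0.05. The zone 2 points lie furthest to the left for every member, and 5 of them are filled.

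Within single zones, dpc8 against NP gave no call among the members in zone 1, 2 or 3, and 0.0309%, 0.00772% and 0.0154% of all genes were called. At an unadjusted p under 0.05 there were 3, 3 and 0 members, all class II, beside 3.13%, 5.06% and 2.74% of all genes. The lowest unadjusted result was H2-Ab1 in zone 2, at -1.13 ± 0.29 on the log2 scale (SE, adjusted p 0.863 by limma). For dpc16 against dpc8, zone 1 gave no call among the members, nor any unadjusted p under 0.05, where 2.01% of all genes were called and 13.4% had such a p. Zone 2 gave Psmb8 and Psmb9 and zone 3 gave Psmb8 alone, with 0.803% and 0.788% of all genes called lower. In zone 3 Psmb8 measured 45.1, 36.9 and 40.7 FPKM at dpc8, the highest group mean of all 9, and 14.8, 19.4 and 14.5 at dpc16, with a change of -1.29 ± 0.32 (SE, adjusted p 0.0458 by limma) that was lost in each of the 6 fits leaving out 1 library. In this comparison 4 of the 11 Kupffer cell markers were also lower, with a median change of -1.32 and all 11 negative, among them Cd5l (-2.005), C1qa (-1.78) and Clec4f (-1.66). The count of called markers was 0 to 4 when 1 library was left out, and 6 without the 6 libraries with Y-linked FPKM. It was 9 with array weights, and 10 with equal FPKM sums, where 5.10% of all genes were called lower. The summed FPKM of the 11 was 231 to 324 in dpc8 zone 3 and 56.8 to 127 in dpc16 zone 3. In zone 2 none of the 11 was called against dpc8, with a median of -0.72, or -0.14 without dpc16 replicate 3. With equal FPKM sums 6 of the 11 were called lower there (median -1.13), beside 6.35% of all genes. Their part in the falls of Psmb8 and Psmb9 was not tested. All 3 dpc16 values were under all 3 dpc8 values for 0, 6 and 6 members in zones 1, 2 and 3, beside 10.1%, 6.96% and 12.2% of all genes.

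No member was called in the comparisons of zones that were run, in which zone 2 entered only as the mean over stages. Zone 1 against zone 3 gave none at NP, dpc8 or dpc16, where 1.34%, 1.61% and 1.55% of all genes were called, nor as the mean over stages, where 5.59% were. Zone 1 against zone 2 and zone 2 against zone 3, over the stages, gave none beside 0.919% and 1.88% of all genes. In the order of these 6 comparisons, 2, 2, 0, 2, 1 and 1 members had unadjusted p under 0.05, beside 8.02%, 12.2%, 7.86%, 15.4%, 6.33% and 10.01% of all genes. Over the stages, H2-Eb1 was 0.43 ± 0.20 and H2-Ab1 0.41 ± 0.17 higher in zone 1 than in zone 3 on the log2 scale (SE), with adjusted p of 0.279 and 0.22 by limma, and H2-Ab1 was called without the 6 libraries with Y-linked FPKM.

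By group mean, the order of Cd74 ran from NP zone 2 (74.7 ± 5.42 FPKM, SD, n = 3) and NP zone 1 (61.8 ± 8.33) down through the dpc8 zones and NP zone 3, all between 34.9 and 40.1, to dpc16 zone 3 (22.1 ± 7.13). The groups between 34.9 and 40.1 did not differ beyond their spread. H2-Aa and H2-Ab1 likewise had NP zone 2 first (32.1 ± 1.54 and 26.8 ± 1.99) and NP zone 1 second, and the lowest means at dpc16. For Psmb9 the first group was dpc8 zone 3 (20.3 ± 0.898) and the last was dpc16 zone 2 (4.30 ± 1.98), and only the step to that last group was larger than the SD of both neighbours.

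The other genes of antigen presentation were taken from lists. Of 38 such genes, the constitutive proteasome subunits included, 32 passed the filter. At dpc16 against NP, mean over zones, 7 of them were called lower and 2 higher, beside 6.15% and 5.65% of all genes, so that the 2 of 32 higher were near the share of all genes. At dpc16 against dpc8 the counts were the same, 7 and 2, beside 5.69% and 5.37%. At dpc8 against NP none was called, and 3 had unadjusted p under 0.05, where 6.11% of all genes had. The median changes at dpc16 against NP were -0.46 for 13 other class I genes, -0.22 for 10 peptide supply and loading genes and -0.52 for 6 other class II genes, beside -0.01 over all genes.

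Among the other class I genes 3 of 13 fell at dpc16 against NP. Cd1d1, which presents lipids to natural killer T cells, had medians of 123 FPKM at NP, 135 at dpc8 and 63.5 at dpc16, a change of -1.06 ± 0.21 on the log2 scale (SE, adjusted p 0.00167 by limma). H2-Q1 fell by 1.04 and H2-T22 by 0.57, the latter with an adjusted p of 0.112 when the replicate number was a random term and not called in 9 of the 18 fits that left out 1 library. Against dpc8, 4 of the 13 were lower, among them Cd1d1 (-1.06), H2-Q7 (-0.86) and H2-T22 (-0.70), and with the random term 2 were.

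In peptide supply, Psmb10, the remaining catalytic subunit of the immunoproteasome, also fell. Its medians were 42.2 FPKM at NP, 56.5 at dpc8 and 17.4 at dpc16, and its change was -1.38 ± 0.22 (SE, adjusted p 0.000209 by limma). The constitutive subunits that these 3 replace, Psmb5, Psmb6 and Psmb7, were not called, with changes of 0.30, 0.22 and 0.35 that turned to between -0.17 and -0.04 when each library was scaled to the same sum. The tapasin gene Tapbp, which holds class I at the transporter, fell by 0.56 on the log2 scale (adjusted p 0.0102 by limma, 0.0566 with the random term). The chaperones Calr and Pdia3, which serve the folding of many proteins besides class I, rose by 0.93 and 0.82 (adjusted p 0.00272 and 0.00194 by limma), but were not called under scaling to the same sum (0.53 and 0.43, adjusted p 0.0599 and 0.118). Against dpc8 Psmb10 (-1.54), Psme1 (-0.77) and Tapbp (-0.65) fell and Calr (1.02) and Pdia3 (0.79) rose. Under scaling to the same sum Calr was still called against dpc8 (0.57, adjusted p 0.0398 by limma) and Pdia3 was not (0.34, adjusted p 0.21).

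Of the other class II genes, H2-DMa and H2-DMb1, which exchange the peptide in the class II groove, had changes of -0.71 and -0.70 at dpc16 against NP that were called but lost in 11 and 15 of the 18 fits that left out 1 library. Their adjusted p of 0.0383 and 0.049 by limma rose to 0.153 and 0.134 with the random term, and without the 6 libraries with Y-linked FPKM only H2-DMa was called. H2-DMb1 was low, with a median of 2.66 FPKM at NP and 1.25 at dpc16.

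Among the regulators of these genes, Irf1, a factor induced by interferon gamma, fell by 0.66 (adjusted p 0.0135 by limma, 0.0672 with the random term). Ifngr2, a chain of the interferon gamma receptor, rose by 0.63 (adjusted p 0.0187 by limma), a call that was lost with the random term (adjusted p 0.0658) and under scaling to the same sum (0.431). The class I coactivator Nlrc5 changed by -0.15 ± 0.25 (SE, adjusted p 0.789 by limma). The class II coactivator Ciita, at a median of 0.52 FPKM at NP and 0.24 at dpc16, did not pass the filter and was not tested.

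Among 16 interferon-induced genes outside presentation, 9 were lower at dpc16 than at NP and none was higher, with a median change of -0.87 beside -0.01 over all genes, of which 6.15% were called lower. The guanylate-binding proteins Gbp3 and Gbp7 and the ubiquitin-like Isg15 were named by size. Gbp3 had medians of 9.49, 8.49 and 1.65 FPKM at NP, dpc8 and dpc16, and all 9 dpc16 libraries were at 3.32 or less, under every NP and dpc8 library. It fell by 1.71 (adjusted p 5.92e-06 by limma), Isg15 by 1.23 (0.0157) and Gbp7 by 1.02 (0.00196). Against dpc8, 7 of the 16 were lower, beside 5.69% of all genes, and at dpc8 against NP none was called, with 2 at an unadjusted p under 0.05, beside 6.11% of all genes. Without the 6 libraries with Y-linked FPKM the count against NP was again 9 lower, with 1 higher, and with the random term it was 8.

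**Figure D4:**
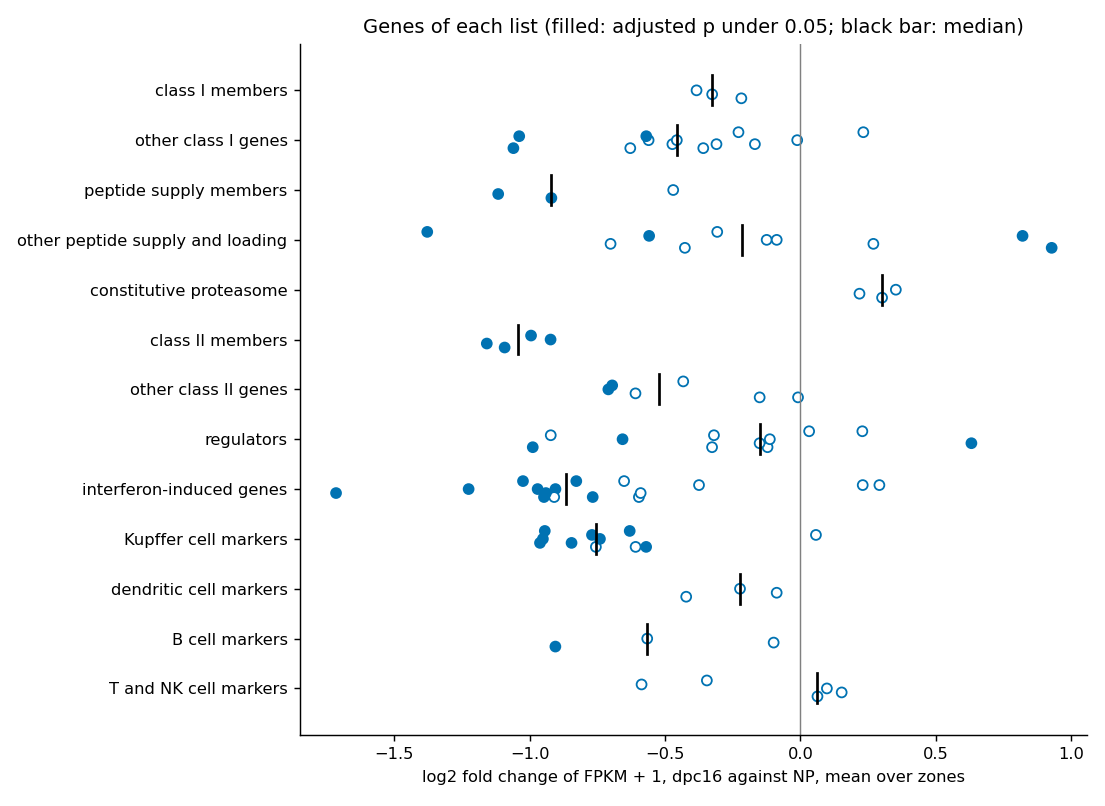
Log2 fold change of FPKM + 1 at dpc16 against NP, mean over zones (horizontal axis), with 1 point per tested gene of each list (vertical axis), filled where the adjusted p was under 0.05, and a black bar at the median of a list. The class II members, the interferon-induced genes and the Kupffer cell markers have medians of -1.04, -0.87 and -0.76, while the constitutive proteasome genes lie right of 0, or left of it when each library is scaled to the same sum.

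Kupffer cell markers were lower at dpc16, as the class II genes were. Of 11 Kupffer cell markers, 8 were lower at dpc16 than at NP (median change -0.76), among them Clec4f (-0.96), Csf1r (-0.95) and Cd5l (-0.94), and 8 were lower than at dpc8, where 6.15% and 5.69% of all genes were called lower. With the random term these counts were 4 and 3, and without the 6 libraries with Y-linked FPKM they were 7 and 9. Their summed FPKM ranged from 173 to 624 over the NP libraries, from 193 to 440 at dpc8 and from 56.8 to 336 at dpc16, and every one of the 11 was above 0 in each library. At dpc8 against NP none of the 11 was called, nor had an unadjusted p under 0.05, and their median change was 0.03, where that of the 4 class II members was -0.53. The part of these markers in the class II result was not tested.

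The other antigen-presenting and lymphoid cells gave little signal. The summed FPKM of 8 dendritic cell markers was 1.62 to 8.28 at NP and 1.68 to 5.74 at dpc16, that of 6 B cell markers 1.36 to 16.3 and 0.801 to 2.57, and that of 8 T and NK cell markers 2.06 to 8.18 and 1.08 to 4.29. None of 3 dendritic cell and 5 T and NK cell markers tested was called at dpc16 against NP, where 6.15% of all genes were called lower. Of 3 B cell markers Cd22 was lower (-0.90, adjusted p 0.0388 by limma), a call lost with the random term (0.156) and without the 6 libraries with Y-linked FPKM (0.095). Of the defining markers, Cd209a was at 0 in 18 of the 27 libraries, Ms4a1 in 9 and Cd8a in 14, and no marker was at 0 in all. The pan-leukocyte gene Ptprc had a median of 5.13 FPKM at NP and 3.78 at dpc16 and was not called (-0.45). Of 8 sinusoidal endothelial markers 1 was lower at dpc16 than at NP, Cdh5 (-0.53), beside the same 6.15% of all genes. The summed FPKM of the 8 had medians of 164 at NP, 102 at dpc8 and 149.6 at dpc16, within ranges of 94.2 to 200.1, 84.5 to 189 and 65.2 to 178. At dpc8 against NP the 4 of them with unadjusted p under 0.05 were Pecam1 (-0.72), Oit3 (-0.51), Stab2 (-0.50) and Cdh5 (-0.39).

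**Figure D5:**
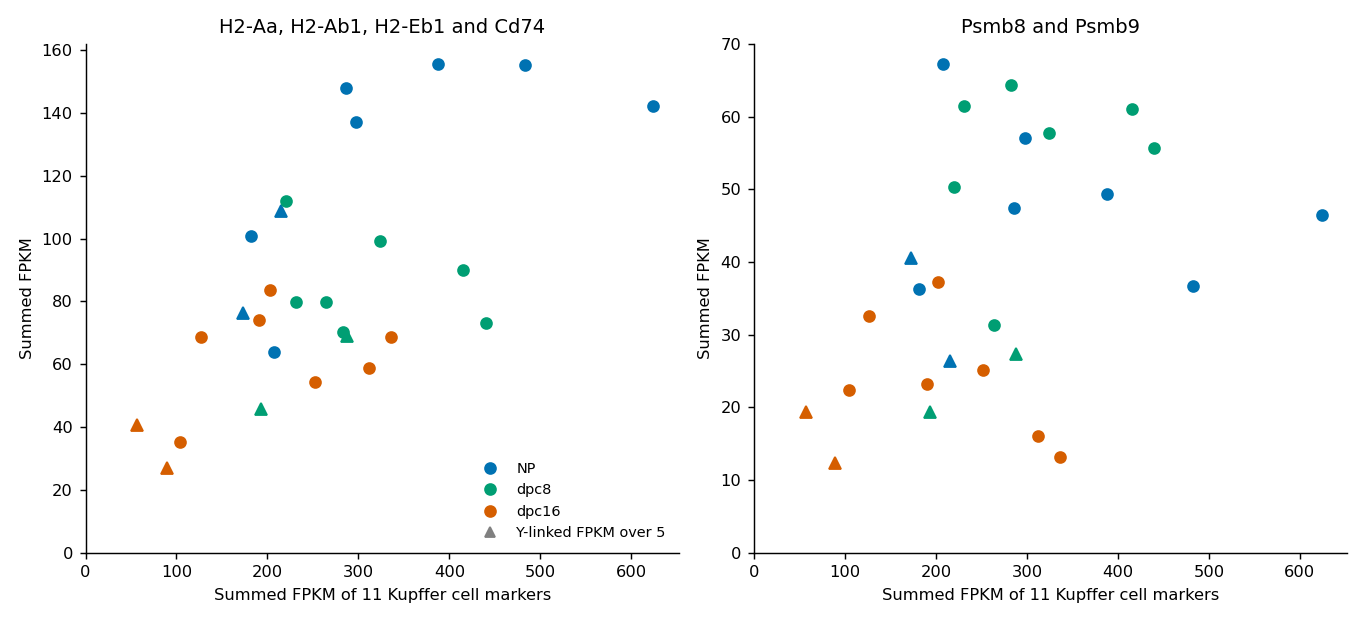
Summed FPKM of the 4 class II members (left) and of Psmb8 and Psmb9 (right) against the summed FPKM of 11 Kupffer cell markers, with 1 point per library, colours for stages and triangles for the 6 libraries with Y-linked FPKM. The Kupffer marker sums run from 173 to 624 at NP, from 193 to 440 at dpc8 and from 56.8 to 336 at dpc16, so the stages overlap along the horizontal axis.

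Across the 27 libraries, class I members followed each other closely, with Pearson's r of 0.84 to 0.96 between pairs on log2(FPKM + 1), as did the class II members (0.78 to 0.93) and Psmb8 with Psmb9 (0.86). Between class I and class II members r was 0.36 to 0.64. These are descriptions over libraries that share stages, zones and depth. Outside the presentation lists, the 5 genes whose pattern was most like the mean of H2-K1, H2-D1 and B2m were Rmnd5a, Msra, Aldh6a1, Dpyd and Urah (r from 0.93 to 0.94), and the 5 most like the mean of the class II members were Arl4d, Rnf213, Rarres2, Chp2 and Ttr (r from 0.82 to 0.87).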

How the data were processed

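RNA of lobular zones from 5 µm liver sections was sequenced in 27 libraries, from areas of 2 mm2 per zone, an input of 50 ng of total RNA, from which ribosomal RNA was then removed, and RNA integrity numbers over 7. Per the submitters' processing notes and the study's methods, the authors trimmed single-end reads with cutadapt, mapped them to mm10 with HISAT2 2.1.0 and the GENCODE vM22 annotation, and deposited FPKM values from Cufflinks 2.2.1 (Cuffdiff) over protein-coding genes, 1 column per library, with uniquely mapped reads. No counts were used here, and whether counting used strand is not given in the sources used here. FPKM scales each library to its mapped reads, so a few very abundant transcripts shift all others.

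Groups followed the labels (stage by zone, n = 3). Genes with at least 1 FPKM in 3 libraries were tested on log2(FPKM + 1) with limma 3.58.1 in R 4.3.3 (9 group means, trend and robust settings, two-sided, Benjamini-Hochberg over all 12952 genes within each comparison). The script was tested on simulated data. Of 22 comparisons, 20 were listed at the outset, and 2 that set the dpc16 change in zone 2 against the other zones came after the values had been seen. The members and gene lists were chosen with earlier results of these data known. In each list, the 3 genes with the largest called change in each direction were named, and the 5 genes outside the presentation lists with the highest Pearson's r to the mean of a member group. Of the regulators, 1 named by this rule is not reported here. Depth was estimated from FPKM steps of genes with 1 transcript longer than 1500 bases, of which 94.1% to 98.5% of low values were within 0.1 of whole reads. Positions came from GENCODE vM21 and promoters from RefSeq (the first of 2 windows for H2-K1). Nothing ties libraries to animals, so p-values measure the spread between these libraries, which may be technical. Same-numbered zones of dpc16 deviated together (r from 0.26 to 0.86 in all 9 pairs), those of NP and dpc8 did not in every pair, and the random term had a correlation of 0.193. The alternatives were a pseudocount of 0.1, no filter, equal FPKM sums, quantile normalization, array weights, only the groups compared, the replicate number as fixed or random term, no libraries with summed Y-linked FPKM over 5, and leaving out each library.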

Additional observations from a re-analysis of the deposited data

How the results depend on the processing

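The 6 members called at dpc16 against NP, mean over zones, were called in every analysis run, and the count was 10 with equal FPKM sums and 8 with quantile normalization. Equal FPKM sums also raised the counts of called members, all lower, to 5, 10 and 3 for dpc16 against NP in zones 1, 2 and 3 (beside 5.06%, 7.999% and 4.05% of all genes called lower), to 2, 7 and 6 for dpc16 against dpc8 (10.97%, 6.35% and 5.10%), and to 10 for its mean over zones (26.2%, with the median of all genes at -0.38). Array weights gave 1 member (Cd74) for dpc16 against NP in zone 1, 4 for dpc16 against dpc8 in zone 3, 5 for its mean over zones and 1 (H2-Ab1) for zone 1 against zone 3 over stages. With only the groups compared, 0 members were called in zone 2 for dpc16 against NP and against dpc8, since fewer libraries estimated the spread. For dpc16 against dpc8, no filter gave 1 in zone 2 and 0 in zone 3, and quantile normalization gave 0 in zone 3 and 4 over zones. Without the 6 libraries with Y-linked FPKM, dpc16 against dpc8 over zones gave 4 and zone 1 against zone 3 over stages gave 1. The cause of these shifts was otherwise not tested. Leaving out 1 library gave 2 to 5 members for dpc16 against NP in zone 2, 6 to 7 over zones, 0 to 2 for dpc16 against dpc8 in zone 2, 0 in zone 3 and 2 to 4 over zones (4 without dpc8 zone 1 replicate 1 or dpc16 zone 3 replicate 2), and 0 to 1 for zone 1 against zone 3 over stages (H2-Ab1 without dpc8 zone 1 replicate 1). The calls of Psmb8 and Psmb9 at dpc16 against dpc8 in zone 2 fell to 0 without dpc8 replicate 1 or 3 or dpc16 replicate 2 or 3.

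For dpc8 against NP over zones, values near 0 changed sign. Psmb9 was 0.031 with equal FPKM sums, 0.014 with array weights and 0.042 without the libraries with Y-linked FPKM. Leaving out 1 library gave -0.040 to 0.12 for H2-K1, -0.033 to 0.12 for H2-D1, -0.10 to 0.15 for Tap1, -0.059 to 0.16 for Psmb8 and -0.18 to 0.13 for Psmb9. With the replicate block as a fixed term the members called at dpc16 against NP were 6 in zone 2 and 6 over zones, and as a random term 5 and 6. It changed no other count of called members.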
